A study of Mus musculus with 24 samples.

Results

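Expression of 9 complement genes, C1qa, C1qb, C1qc, C1ra, C2, C3, C4b, Cfb and Cfp, was examined in the RNA-seq libraries of mice with peritonitis that received β-NMN or vehicle. The genes were taken by symbol from the 54658 symbols counted in each of the 2 tables, and all 9 were present in both. β-NMN is nicotinamide mononucleotide, a precursor of the coenzyme NAD+. All libraries came from C57BL/6 males aged 7 to 12 weeks. For the peritoneal libraries, sterile peritonitis was induced with an intraperitoneal injection of 1 mL of 4% thioglycollate medium (TGC), lavage cells were plated, and every well was exposed to E. coli for 6 h at 15 bacteria per cell, so that both arms are stimulated cells (6 vehicle and 6 β-NMN mice). For the organ libraries, sepsis was induced by cecal ligation and puncture (CLP), which lets gut contents leak into the abdomen, and heart and lung were taken from the same 6 mice (3 vehicle, 3 β-NMN). A pair of β-NMN hearts carries the number 3 in the labels, and the one whose mouse gave lung 2 is called heart 2 here. The source label of the organs names thioglycollate peritonitis, but their titles name CLP, which was followed. Vehicle was 0.9% saline, and β-NMN was given at 185 mg/kg from the induction of peritonitis. By the study's methods, TGC mice received it daily for 3 days, the last dose 24 h before death, and the CLP organs were taken 24 h after surgery and a single dose, whereas the protocol in the labels covers both models with daily doses for up to 4 days. No sham mice and no unstimulated cells entered the comparisons, so each fold change is a difference between 2 groups with peritonitis.

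Complement is a cascade of plasma and tissue proteins that marks microbes and damaged cells for uptake and lysis. In the classical pathway C1q, built from the products of C1qa, C1qb and C1qc, binds antibody or surfaces, the C1r protease is activated, and C4 and C2 are cleaved to form a convertase that splits C3. In the alternative pathway C3b binds factor B (Cfb), and properdin (Cfp) stabilises the resulting convertase. The liver makes most circulating complement, whereas C1q is made largely by macrophages and other myeloid cells, which also make C3, factor B and properdin.

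The 3 C1q genes lie side by side on the minus strand of chromosome 4 in the mm10 build, in the order C1qb (chr4:136880129-136886187), C1qc (chr4:136889804-136893065) and C1qa (chr4:136895917-136898803). C4b (chr17:34728380-34743882), Cfb (chr17:34856374-34862518) and C2 (chr17:34862604-34898265) lie close together on the minus strand of chromosome 17, C3 (chr17:57203970-57228136) lies farther along the same strand, C1ra is on chromosome 6 (chr6:124512405-124523443, plus strand) and Cfp on the X chromosome (chrX:20925454-20931555, minus strand). The RefSeq promoter table on GRCm38.p6, the same assembly, held 5 of the 9 genes (C1qb, C1qc, C1ra, C3 and Cfp). C1qa, C2, C4b and Cfb had no entry. The bases just upstream of the start of C3, the gene with the largest difference in peritoneal cells, and of 2 C1q genes, which had small ones, are shown 5′ to 3′ on the strand of the gene, with motif matches in capitals.
C3 (chr17:57228137-57228386, minus strand): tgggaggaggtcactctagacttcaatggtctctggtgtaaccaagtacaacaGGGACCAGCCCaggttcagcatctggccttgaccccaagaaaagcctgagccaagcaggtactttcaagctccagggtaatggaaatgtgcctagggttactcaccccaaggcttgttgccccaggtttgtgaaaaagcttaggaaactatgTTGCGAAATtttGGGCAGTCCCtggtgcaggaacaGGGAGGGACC
C1qb (chr4:136886201-136886450, minus strand): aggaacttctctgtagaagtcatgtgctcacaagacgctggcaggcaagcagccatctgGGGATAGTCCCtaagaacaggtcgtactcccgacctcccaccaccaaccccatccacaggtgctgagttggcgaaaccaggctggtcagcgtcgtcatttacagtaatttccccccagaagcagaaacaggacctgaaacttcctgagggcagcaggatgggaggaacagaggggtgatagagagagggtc
C1qc (chr4:136893066-136893164, minus strand): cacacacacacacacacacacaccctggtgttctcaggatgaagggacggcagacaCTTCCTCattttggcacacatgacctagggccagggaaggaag
Capitals in the C3 sequence mark the NF-kB pattern (GGG, any 5 bases, CC) at 3 places, where matches on opposite strands that overlap are counted as 1 place, and the C/EBP pattern TTGCNNAAT at 1 place. Capitals in C1qb mark the NF-kB pattern, with overlapping matches on both strands, and in C1qc the reverse strand of the PU.1 core GAGGAAG. Over the 250 bases upstream of the start, 45.8% of 32851 RefSeq promoters held the NF-kB pattern, 2.11% the C/EBP pattern and 10.61% the PU.1 core, counting either strand. Of the C1qc window only 99 bases lie before the start of the gene model, and over a stretch of that length 3.93% of promoters held the PU.1 core. Of the promoters searched but not shown, Cfp held the NF-kB pattern from base -10 to base -1. C1ra, with only 34 bases before its start, held none of the patterns. Over that length 5.21% of promoters held the NF-kB pattern. The ISRE core (GAAA, any 2 bases, GAAA, in 2.98% of promoters), the GAS pattern TTCNNNGAA (7.02%) and the MAF motif TGCTGAC (3.81%) were searched in the same way and were not among the matches of these genes. A match is a description of these letters and not a measured binding site.

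In peritoneal cells the values are counts per 1000000 counts (CPM), scaled by TMM factors, and the comparison was edgeR's quasi-likelihood test over 14985 genes with Benjamini-Hochberg adjustment, a gene being called at an adjusted p below 0.05. Under β-NMN, C3, Cfb and C2 fell and C1ra and C4b rose, while C1qa, C1qb, C1qc and Cfp did not pass the test. Of the 9 genes, 2 were therefore called higher, against 23.7% of all genes tested, and 3 lower, against 27.9%, so that the share called was near that of all genes. In 2 of the 9 the groups did not overlap, against 26.6% of all genes tested. The median log2 fold change of the 9 was 0.05, beside -0.02 over all genes. The plot by library shows these values.

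**Figure D1:**
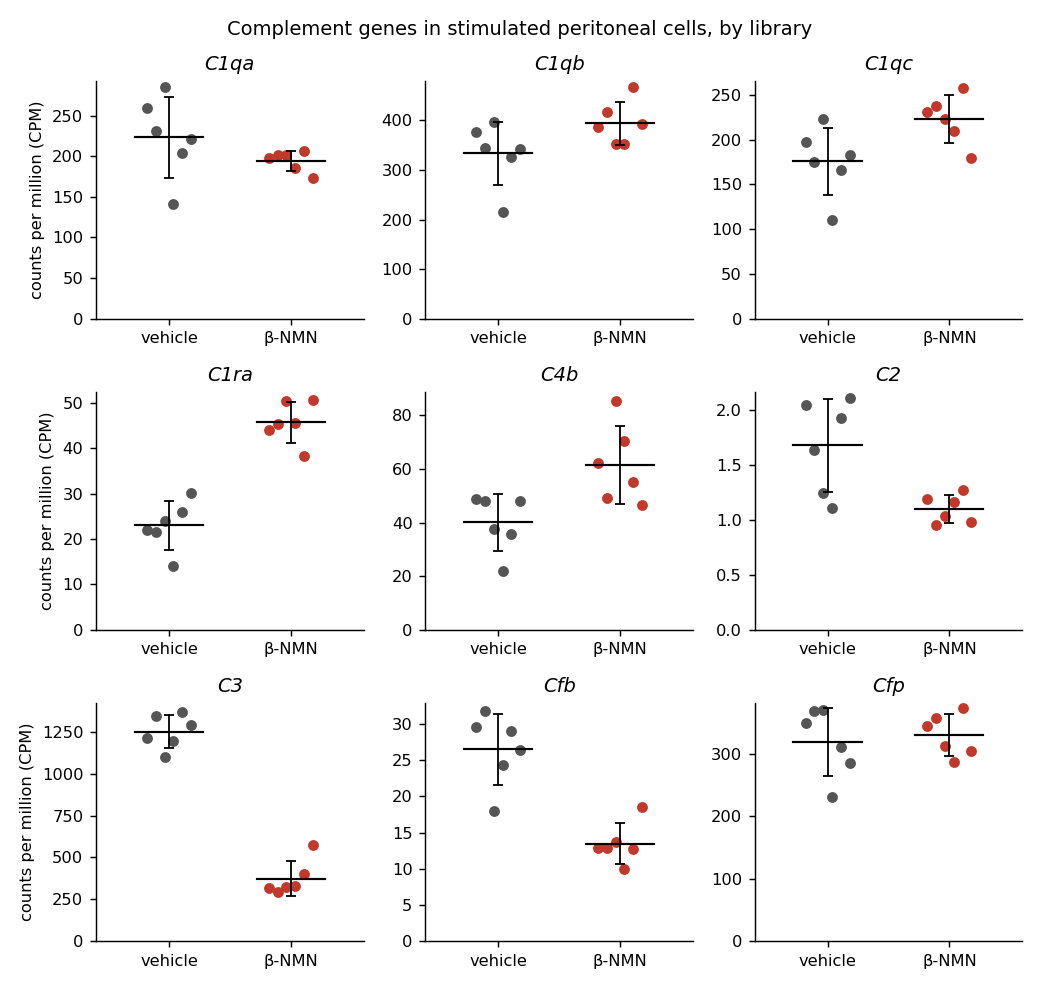
CPM of the 9 complement genes in each library of E. coli-stimulated peritoneal cells, 6 vehicle (grey) and 6 β-NMN (red) mice, each on an axis that starts at 0, with the mean as a horizontal line and bars of 1 SD. C3 in all β-NMN libraries (292 to 572 CPM) is below all vehicle libraries (1102 to 1369 CPM), C1ra is above them, and the other genes overlap.

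C3, the central protein of the cascade on which all its pathways converge, had the largest difference. It ranged from 1102 to 1369 CPM in vehicle libraries, with a median of 1254. In β-NMN libraries it ranged from 292 to 572 CPM, with a median of 327. No library overlapped the other group, and the highest β-NMN library, replicate 6, was still below the lowest vehicle library. The fold change was -1.75 on the log2 scale (SE 0.15), 3.37-fold lower (edgeR adjusted p = 4.275e-07). The exact two-sided permutation test on mean log2 CPM gave p = 0.002165, below which 6 against 6 cannot go.

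Cfb encodes factor B, the protease of the alternative pathway convertase. It ranged from 18.03 to 31.8 CPM (median 27.7) with vehicle and from 9.99 to 18.6 CPM (median 12.9) with β-NMN. The ranges met at 1 library of each group, vehicle replicate 3 and β-NMN replicate 6. The log2 fold change was -0.98 (SE 0.15, edgeR adjusted p = 8.956e-05). C2, the protease of the classical convertase and the neighbour of Cfb on chromosome 17, was far less abundant, at 55 to 216 counts per vehicle library and 39 to 108 per β-NMN library. It was at 1.11 to 2.11 CPM with vehicle and 0.954 to 1.28 with β-NMN, with overlap. Its log2 fold change was -0.61 (SE 0.19, edgeR adjusted p = 0.01596), and the call was lost without the low-count filter (adjusted p = 0.08778) and within the libraries above and below 70 M counts (adjusted p = 0.2087 and 0.1793). In the GENCODE M21 annotation only 20.5% of the exon bases of Cfb and 53.1% of those of C2 are free of exons of other genes, because the readthrough gene Gm20547 spans both. Gm20547 was counted at 0 in all 24 libraries, so the counts of Cfb and C2 may cover only part of their exons.

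C1ra encodes C1r, the first protease of the classical pathway. It ranged from 14.0 to 30.2 CPM (mean 22.99) with vehicle and from 38.3 to 50.5 CPM (mean 45.7) with β-NMN. The lowest β-NMN library was above the highest vehicle library. The log2 fold change was 0.99 (SE 0.14), 1.99-fold higher (edgeR adjusted p = 5.656e-05). C4b, which encodes complement C4, ranged from 21.8 to 48.9 CPM (median 42.9) with vehicle and from 46.6 to 85.4 CPM (median 58.7) with β-NMN, with overlap. Its log2 fold change was 0.62 (SE 0.19, edgeR adjusted p = 0.01348). Both genes have a near-copy that could share reads: 34.49% of the 100-base windows of C1ra transcripts are found unchanged in C1rb and 15.23% of those of C4b in C4a. C1rb was at 4 to 13 counts per peritoneal library, too few for the test. C4a, at 35 to 327 counts, had a log2 fold change of 0.08 (SE 0.27, edgeR adjusted p = 0.8271).

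The 3 C1q genes encode the chains of the recognition molecule. C1qa ranged from 141 to 285 CPM (median 226) with vehicle and from 174 to 206 CPM (median 199) with β-NMN. C1qb ranged from 215 to 398 CPM (median 344) and from 352 to 467 CPM (median 390). C1qc ranged from 110 to 223 CPM (median 179) and from 179 to 258 CPM (median 227). In all 3 genes the lowest library was vehicle replicate 4, and the groups overlapped. The log2 fold changes were -0.20 (SE 0.13) for C1qa, 0.24 (SE 0.13) for C1qb and 0.35 (SE 0.14) for C1qc, with edgeR adjusted p of 0.2213, 0.1316 and 0.05158. C1qc was close to the threshold and was called higher by DESeq2 (adjusted p = 0.04406) and by limma-voom with quality weights (adjusted p = 0.003941). Single libraries also decided calls: without vehicle replicate 4 C1qa was called lower (log2 fold change -0.27, edgeR adjusted p = 0.0304), and without vehicle replicate 3 C1qb was called higher (0.34, edgeR adjusted p = 0.04225). C1qc was called higher without vehicle replicate 1, 3 or 4 and without β-NMN replicate 4 or 6 (0.28 to 0.47, edgeR adjusted p of 0.01161 to 0.04544). The value of C1qa depended on the libraries used: its log2 fold change was 0.15 within the 5 libraries of more than 70 M counts and -0.40 within the 7 of fewer (edgeR adjusted p = 0.62 and 0.03479).

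Although none of the chains was called alone, their proportions within a library differed between groups. Counts of C1qa per count of C1qb ranged from 0.623 to 0.717 with vehicle (median 0.663) and from 0.441 to 0.572 with β-NMN (median 0.496). Counts of C1qa per count of C1qc ranged from 1.2 to 1.32 with vehicle (median 1.28) and from 0.798 to 0.971 with β-NMN (median 0.871). Neither ratio overlapped between groups, whereas C1qc per C1qb did (0.507 to 0.560 and 0.456 to 0.632). A ratio within a library does not depend on the scaling between libraries, and it shows unequal change without saying which chain moved. The mean log2 ratio was lower with β-NMN by -0.43 for C1qa to C1qb and by -0.54 for C1qa to C1qc. The exact permutation test (two-sided) gave p = 0.002165 for each, which no other split of 6 and 6 could lower, and 0.009742 after adjustment over the 9 ratios compared (3 in each kind of sample). These ratios were chosen after the levels had been seen. Both were also lower within the 5 libraries of more than 70 M counts (-0.37 and -0.54) and within the 7 others (-0.49 and -0.56). The exact permutation p was 0.1 for both in the first, where 3 against 2 cannot go lower, and 0.05714 and 0.02857 in the second. No 100-base window of C1qa occurs in C1qb or C1qc.

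**Figure D2:**
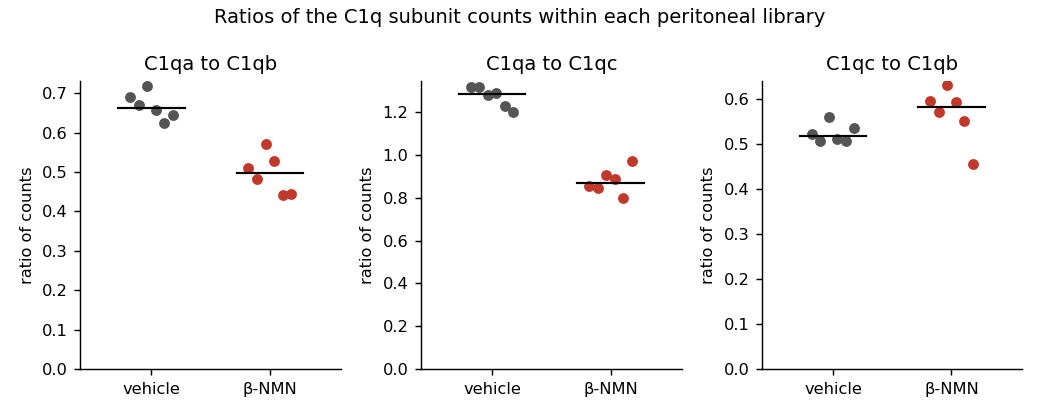
Ratios of raw counts of the C1q chains in each peritoneal library, 6 vehicle (grey) and 6 β-NMN (red), with the median as a line and axes that start at 0. C1qa to C1qb (0.441 to 0.572 against 0.623 to 0.717) and C1qa to C1qc (0.798 to 0.971 against 1.2 to 1.32) separate the groups, and C1qc to C1qb does not.

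Cfp encodes properdin. It ranged from 231 to 370 CPM with vehicle and from 287 to 374 CPM with β-NMN, and its log2 fold change was 0.05 (SE 0.12, edgeR adjusted p = 0.7541). Of the pair of alternative pathway genes, Cfb was thus called lower and Cfp was not called. Whether their fold changes differ was not tested.

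Per kb of exon not shared with other genes, the order of levels in vehicle cells was C1qb (mean 306.7 CPM per kb, SD 58.7), C3 (243.9, SD 19.6), C1qa (214.9, SD 47.9) and Cfp (183.9, SD 31.6), and each of these overlapped the next. C1qc (90.9), Cfb (45.8), C1ra (7.71), C4b (7.03) and C2 (0.817) followed, with overlap only between C1ra and C4b. In β-NMN cells C3 had a mean of 72.5 CPM per kb (SD 20.3), below the means of C1qb (362.7), Cfp (190.1), C1qa (186.9) and C1qc (115.5). The levels of Cfb and C2 per kb rest on the unshared part of their exons.

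Over the 12 peritoneal libraries, after the group means were removed, the deviations of log2 CPM of the C1q genes moved together, with Pearson's r of 0.96 between C1qa and C1qc, 0.90 between C1qa and C1qb and 0.90 between C1qb and C1qc, and with r of 0.85 to 0.89 between each of them and Cfp. C4b had r of 0.44 to 0.67 with the C1q genes, 0.63 with C2 and 0.62 with C1ra. C3 and Cfb had r of 0.69 with each other, with r between -0.33 and 0.07 for C3 against the C1q genes. In both C3 and Cfb the highest library of the β-NMN group was replicate 6, and r without it was not computed. The genes outside the complement and marker lists whose deviations were most like the mean of the C1q genes were Clic1 (r = 0.948), Sec61g (r = 0.944) and Erlec1 (r = 0.943). The correlations are descriptions over the same 12 libraries, which share their depth classes and their scaling.

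Other genes of the system were read from 3 lists of 45 further components, receptors and regulators, of which 25 were abundant enough to test. In these, 9 rose, 6 fell and 10 were not called, with a median log2 fold change of 0.23 beside -0.02 over all genes tested and 23.7% of all genes called higher and 27.9% lower. Among further components, Fcna, a lectin that starts the lectin pathway, rose (log2 fold change 0.98, SE 0.14), and C1s1, the protease partner of C1r, fell (-1.28, SE 0.31), with edgeR adjusted p of 3.451e-05 and 0.002836. C1ra and C1s1, whose products act as a pair, were thus called in opposite directions. Of the 11 receptors tested, 4 rose and 2 fell: Cd93, a surface protein first described as a C1q receptor, had a log2 fold change of 1.04 (SE 0.10, edgeR adjusted p = 7.484e-07), and C5ar1, the receptor of the anaphylatoxin C5a, one of -1.14 (SE 0.13, edgeR adjusted p = 4.875e-06). Vsig4, a macrophage receptor for C3 fragments, was at 1.95 to 5.20 CPM with vehicle and 5.26 to 24.3 CPM with β-NMN (log2 fold change 2.16, SE 0.32, edgeR adjusted p = 7.291e-05). Of the 7 regulators tested, 3 rose and 2 fell. Cr1l, a membrane inhibitor of C3 convertases, was at 67.4 to 81.1 and 109 to 120 CPM without overlap (log2 fold change 0.65, SE 0.07, edgeR adjusted p = 3.027e-06). Clu, which encodes clusterin, an inhibitor of the terminal complex, was at 6.01 to 43.7 CPM with vehicle and 2.74 to 4.77 CPM with β-NMN, also without overlap (log2 fold change -2.92, SE 0.42, edgeR adjusted p = 4.724e-05). Of the terminal genes, C8g, which encodes a chain of C8, rose (0.86, edgeR adjusted p = 0.04562) and Hc, which encodes C5, fell (-0.84, edgeR adjusted p = 0.03683), and C6, C7, C8a, C8b and C9 were below the filter in these cells.

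**Figure D3:**
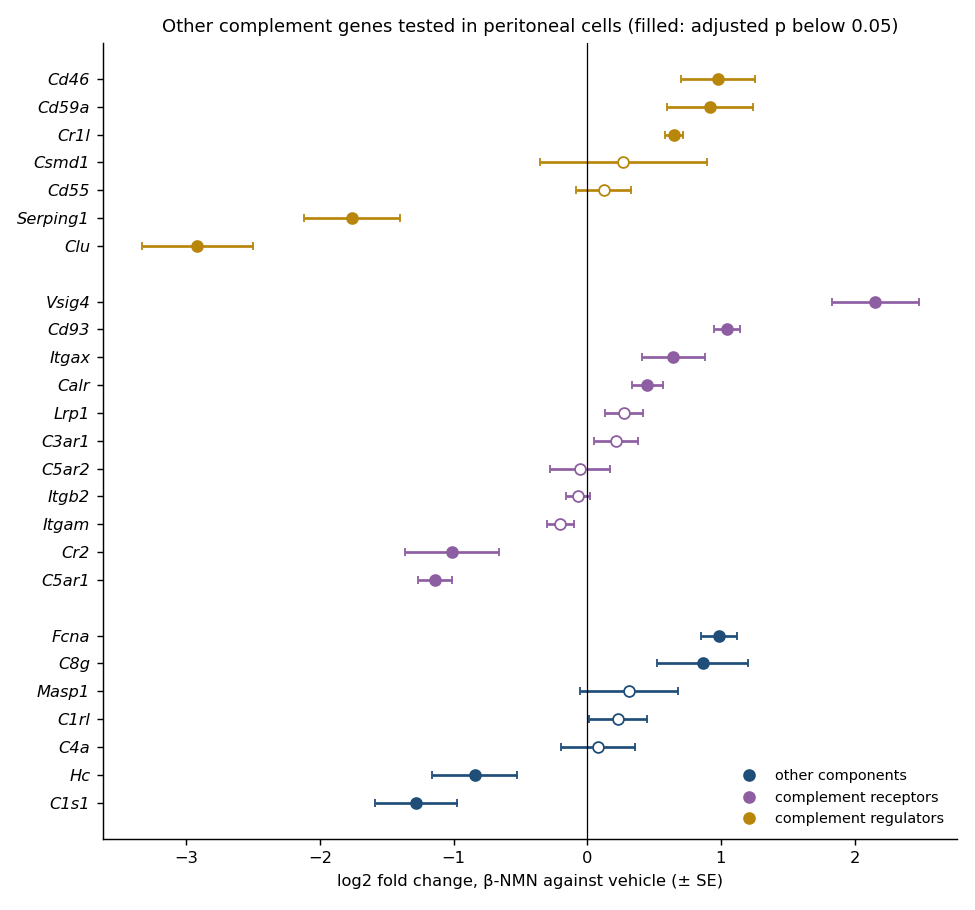
Log2 fold change of the 25 other complement genes tested in peritoneal cells, β-NMN against vehicle, with bars of 1 SE, grouped into components, receptors and regulators (filled circles passed an adjusted p of 0.05). Of them 9, including Cd93 at 1.04 and Cr1l at 0.65, are called higher and 6, including C1s1 at -1.28 and C5ar1 at -1.14, are called lower.

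In these bulk libraries fewer cells of a type and less RNA per cell cannot be told apart, and markers of several cell types differed between the same groups. The labels name peritoneal cells and no cell type. Macrophage markers summed to 7091 to 13440 CPM with vehicle and 10830 to 12490 with β-NMN, 4 of 8 being called higher and 1, Cd14, lower. Markers of large peritoneal macrophages summed to 19.3 to 29.3 CPM with vehicle and 27.6 to 59.5 with β-NMN, and 3 of 5 were called higher (Timd4, Lyve1 and Selp) and 2 lower (Gata6 and Icam2). Neutrophil markers summed to 491 to 998 CPM with vehicle and 334 to 468 with β-NMN, 5 of the 7 tested being called lower and 1, Retnlg, higher. Fibroblast and mesothelial markers summed to 91.0 to 962 CPM with vehicle and 20.9 to 87.9 with β-NMN, 6 of 7 being called lower. Monocyte and dendritic markers summed to 45.7 to 91.3 and 21.4 to 25.4 CPM (5 of 7 lower, 1 higher), B cell markers to 37.1 to 189 and 25.9 to 92.3 CPM (3 of 5 lower), and T and NK cell markers to 11.2 to 58.7 and 6.80 to 10.1 CPM (5 of 5 lower). Hepatocyte markers summed to at most 0.760 CPM in any peritoneal library. Mitochondrial genes took 0.504 to 0.653% of counts with vehicle and 0.599 to 0.886% with β-NMN, 5 of the 6 β-NMN libraries being above every vehicle library. The part of the macrophage, fibroblast, neutrophil, lymphoid and dendritic cells and of the mitochondrial share in these results was not tested.

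In the heart after CLP, 3 vehicle and 3 β-NMN libraries were compared over 16245 genes. None of the 9 genes passed the edgeR test in either direction, with 0% of all genes called higher and 0% called lower (1837 genes and 4 of the 9 had an unadjusted p under 0.05, and no member was called by DESeq2). The study reports genes that pass the same threshold between these treatments in both heart and lung. Why that differs from the fits here was not tested. The vehicle heart of mouse 2 stood apart: its distance from the mean of the other hearts (SD over genes of the log2 CPM difference) was 0.99, against 0.386 to 0.577 for the others. Mitochondrial genes took 12.9% of its counts against 18.2 to 22.7%. Its mesothelial marker Msln was at 45.3 CPM, against 0.0775 to 2.59 in the other 5 hearts, and its cardiomyocyte markers summed to 29580 CPM against 47770 to 55330.

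C1ra, C2, C4b and Cfb had every β-NMN heart below every vehicle heart, 4 of 9 genes against 23.1% of all genes without overlap. C2 was at 0.430, 4.14 and 0.320 CPM in vehicle hearts 1, 2 and 3 and at 0.223, 0.296 and 0.248 in β-NMN hearts. Cfb was at 1.08, 6.15 and 0.669 CPM and at 0.261, 0.665 and 0.481. In both genes vehicle heart 2 was far above all others, and the lowest vehicle heart, replicate 3, was close to the highest β-NMN heart. C1ra was at 34.4, 74.9 and 26.2 CPM with vehicle and 22.0, 22.3 and 18.4 with β-NMN. C4b was at 90.3, 175 and 79.0 CPM and at 71.2, 74.6 and 46.6. C3 was at 592, 1559 and 425 CPM with vehicle and 489, 441 and 300 with β-NMN, with overlap. Here too vehicle heart 2 was the highest library of each gene.

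The log2 fold changes in the heart were -2.65 for C2 (SE 1.02), -2.45 for Cfb (SE 0.88), -1.12 for C1ra (SE 0.38), -0.84 for C4b (SE 0.34) and -1.07 for C3 (SE 0.49), with edgeR adjusted p of 0.4351 to 0.4399. An exact permutation test of 3 against 3 cannot go below 0.1. Without vehicle heart 2 they became -0.56, -0.87, -0.55, -0.41 and -0.32 in the same order, with edgeR adjusted p of 0.293 to 0.6703. Cfp was highest in that library too (21.7 CPM, against 15.8 and 15.9 in vehicle hearts 1 and 3 and 12.4 to 20.4 with β-NMN). The C1q genes differed from the others here, vehicle heart 2 being the lowest vehicle heart for C1qa (58.0 CPM against 79.6 and 84.9), C1qb and C1qc. The log2 fold changes of C1qa, C1qb, C1qc and Cfp were 0.11, -0.16, -0.01 and -0.09, with SE of 0.18 to 0.22. Of the chain ratios, C1qa to C1qb separated the hearts in the direction opposite to that of the peritoneal cells: counts of C1qa per count of C1qb were 1.21, 0.977 and 1.3 with vehicle and 1.46, 1.33 and 1.46 with β-NMN, and the mean log2 ratio was higher by 0.30 (0.18 without vehicle heart 2). The exact permutation p of 0.1, the lowest that 3 against 3 can give, was 0.225 after adjustment over the 9 ratios. C1qc to C1qb also separated the hearts (0.862 to 1.06 and 1.07 to 1.13), higher by 0.16 on the log2 scale (0.064 without vehicle heart 2), with the same p, and was higher by 0.11 in the peritoneal cells, where it overlapped. C1qa to C1qc overlapped in the hearts (1.13 to 1.24 and 1.2 to 1.36), and no ratio separated the lungs.

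In the lung, none of the 9 genes passed among 17008 tested, again with 0% of all genes called higher and 0% called lower (301 genes and none of the 9 had an unadjusted p under 0.05; DESeq2 called none of the 9). The vehicle lung of mouse 2 had 8.92 M counts, against 16.7 to 28.4 M in the others, and stood at a distance of 1.57 against 0.45 to 0.602. Its macrophage markers summed to 1379 CPM against 4096 to 5535 in the other lungs, and its endothelial markers to 968.7 CPM against 1986 to 2873. C3 was at 1451, 710 and 2297 CPM in vehicle lungs 1, 2 and 3 and at 1257, 1413 and 1649 with β-NMN, so that the β-NMN lungs lay inside the vehicle range. Its log2 fold change was -0.05 (SE 0.45), and -0.38 without vehicle lung 2. Cfp, at 58.3, 56.9 and 70.5 CPM with vehicle and 54.2, 41.6 and 50.6 with β-NMN, was the 1 gene of the 9 whose groups did not overlap, against 8.21% of all genes (log2 fold change -0.35, SE 0.22, edgeR adjusted p = 0.9686). C1qa was at 169, 190 and 186 CPM with vehicle and 218, 118 and 145 with β-NMN. C1qb was at 142, 60.5 and 136 CPM and at 121, 88.1 and 114, so vehicle lung 2 had 3.14 counts of C1qa per count of C1qb where the other lungs had 1.19 to 1.81. Of the other complement genes, 34 were tested in the heart and 33 in the lung, and edgeR called 0 in both. In the heart the genes with the smallest p of each list were C1rl (log2 fold change -1.04) and C7 (-0.62) among components, C5ar1 (-0.54) and Itgb2, a chain of the C3 fragment receptors (-0.54), among receptors, and Serping1, the C1 inhibitor (-0.52), and Clu (-0.87) among regulators, with edgeR adjusted p of 0.4351 to 0.453. In the lung they were Hc (1.04), Fcna (-0.92), Itgam (-0.96), C5ar1 (-0.48), Clu (-0.57) and Cd55 (0.35), each with an edgeR adjusted p of 0.9686. Without vehicle mouse 2, Clu went to -0.24 and Serping1 to -0.21 in the heart, and Itgam to -0.19, Clu to -0.24 and Cd55 to 0.094 in the lung, while the others moved by less than 1.5 times. C5ar1 was lower in each β-NMN heart than in any vehicle heart, without passing the edgeR test, and fell in the peritoneal cells. DESeq2 called it lower in the heart (log2 fold change -0.53, DESeq2 adjusted p = 0.02167), beside 1.89% of all genes called in either direction.

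**Figure D4:**
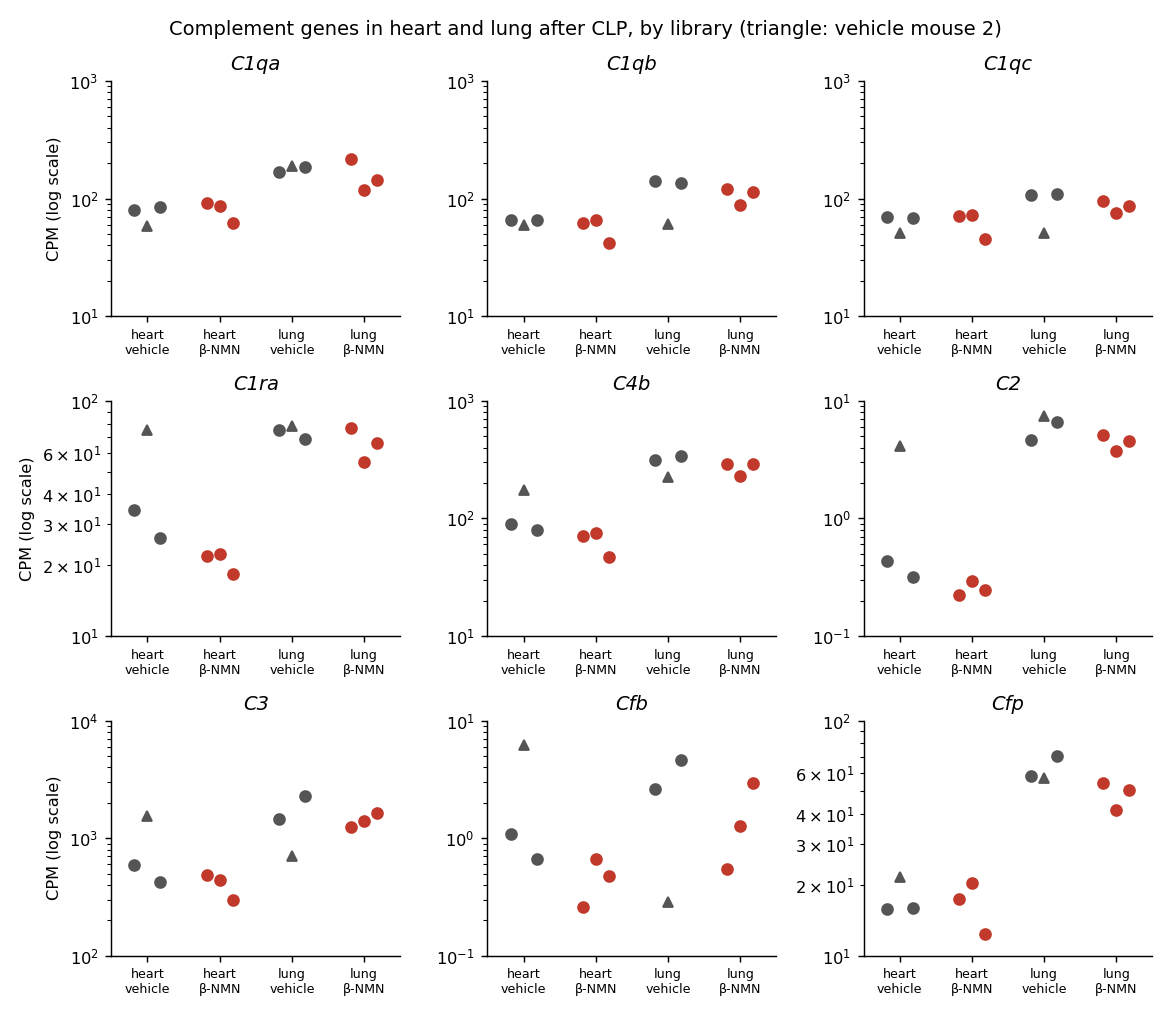
CPM on a log scale in each heart and lung library after CLP, 3 vehicle (grey) and 3 β-NMN (red) mice, with vehicle mouse 2 as a triangle. That mouse has the highest heart value of C1ra, C4b, C2, C3, Cfb and Cfp (C3 at 1559 CPM against 300 to 592). It has the lowest lung value of C1qb, C1qc, C3, C4b and Cfb and the highest lung value of C1ra and C2.

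Heart and lung of the same 6 mice were compared with the mouse as a block over 19279 genes, on one common scale. C2, C4b, Cfp and C1qa were called higher in lung, 4 of 9 genes against 34.4% of all genes, and none lower, against 28.8%. With total counts as the only scaling 52.1% of all genes were higher in lung and 14.3% lower, and the median over all genes went from 0.12 to 0.83 on the log2 scale, mitochondrial genes taking 12.9 to 22.7% of heart counts and 0.407 to 0.757% of lung counts. C2 was higher in the lung of 6 of 6 mice (median 3.86 CPM against 0.393), with a log2 difference of 2.81 (SE 0.53, edgeR adjusted p = 0.001762). Cfp was also higher in 6 of 6 (median 41.4 against 21.2 CPM, log2 difference 0.99, SE 0.18, edgeR adjusted p = 0.001568). C4b was higher in 5 of 6 (log2 difference 1.08, SE 0.29, edgeR adjusted p = 0.0102), as was C1qa (0.45, SE 0.16, edgeR adjusted p = 0.03732). C3, C1ra and Cfb did not pass (log2 differences 0.73, 0.57 and 0.46), each being higher in the lung of 5 of 6 mice, mouse 2 with vehicle being the exception. Without that mouse C3 (1.07), C1ra (0.72) and Cfb (1.03) were called higher in lung and C1qa (0.26, edgeR adjusted p = 0.09899) was not. The call of C1qa was also lost without vehicle mouse 1 or 3 and without β-NMN mouse 1 or 3 (0.42 to 0.46, edgeR adjusted p of 0.08509 to 0.1019). Hepatocyte markers summed to 15.96 to 242 CPM in hearts and 4.08 to 30.5 CPM in lungs.

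The difference between organs in the effect of β-NMN, an interaction term over 18318 genes, was called for none of the 9 genes by edgeR, against 0% of all genes (797 genes and none of the 9 had an unadjusted p under 0.05, DESeq2 also calling none of the 9). This fit held organ and treatment but no term for the mouse. It therefore did not use the pairing of heart and lung within a mouse. The plot of fold changes sets the 3 kinds of sample side by side. The peritoneal and CLP tables came from different mice and models and were fitted apart, so no test between them was made.

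**Figure D5:**
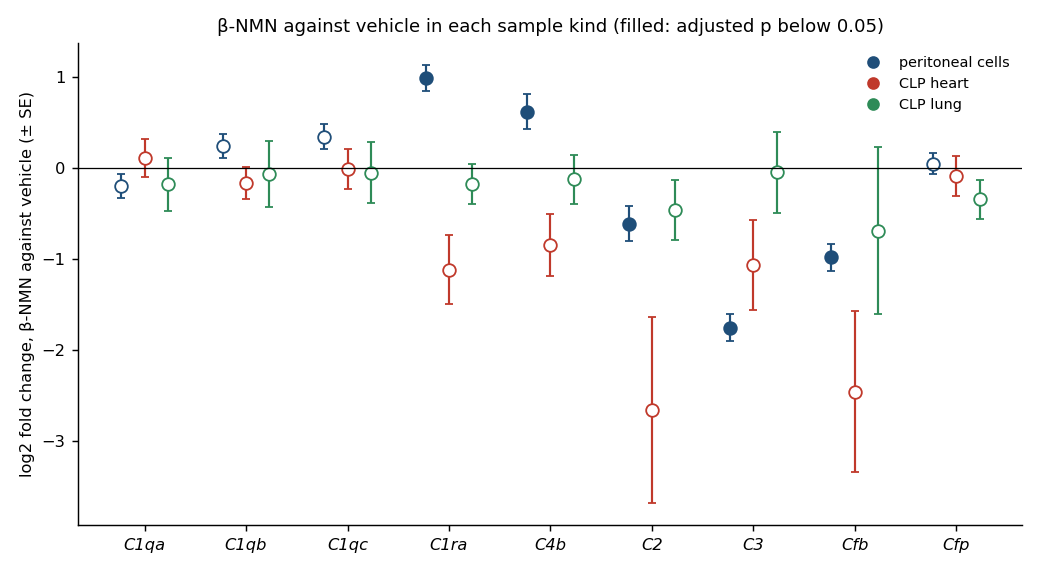
Log2 fold change of the 9 complement genes, β-NMN against vehicle, with bars of 1 SE, in peritoneal cells (blue, 6 against 6), CLP heart (red, 3 against 3) and CLP lung (green, 3 against 3). Filled circles passed an adjusted p of 0.05: C3 (-1.75), Cfb (-0.98) and C2 (-0.61) below 0 and C1ra (0.99) and C4b (0.62) above 0, all in peritoneal cells.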

How the data were processed

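Poly(A) RNA of 24 libraries was sequenced. The authors deposited raw read counts per gene symbol in 2 tables (peritoneal cells, CLP organs), made with STAR on mm10 and with featureCounts (versions 2.7.3a and 2.0.0 in the submitters' processing notes). The annotation and strand setting are not given in the sources used here. Each kind of sample had its own fit in edgeR 4.0.16 (R 4.3.3): filterByExpr, a filter the study's methods do not name, then TMM, estimateDisp and the older quasi-likelihood F-test, which they do. Adjusted p are Benjamini-Hochberg values over all genes tested. SE is the log2 fold change divided by the root of F. CPM is counts per 1000000 of TMM-scaled library size, and log2 CPM used a prior count of 2. Totals were 31.1 to 112 M counts per peritoneal library, 27.3 to 68.5 M in heart and 8.92 to 28.4 M in lung. Peritoneal totals fell in 2 classes, 90.6 to 112 M (3 vehicle, 2 β-NMN) and 31.1 to 53.3 M (3 vehicle, 4 β-NMN). No 2 libraries agreed within counting noise. Replicate numbers are separate mice and were not taken as pairs. The 9 genes, the lists and the tests were chosen with earlier results of these data known. Named beside the 9 genes are, per list and comparison, genes among the 2 with the smallest p, the near-copies C4a and C1rb, and the 3 genes most like C1q. Others (Vsig4, C8g, Msln, Cd14, Retnlg and the large peritoneal macrophage genes) were named after their values were seen. Gene models are from GENCODE M21. DESeq2 1.42.0 and limma 3.58.1 served as alternatives. The fits by depth class, those that leave out CLP mice other than vehicle mouse 2 between organs, the chain ratios without single hearts and the other named genes without mouse 2 were chosen after seeing the data. 1 regulator of the lists is not reported here. The fitting code was checked on simulated counts.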

Additional observations from a re-analysis of the deposited data

Results flagged for a closer look

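In 3 genes and 1 ratio the groups did not overlap in opposite directions in 2 kinds of sample, and the differences between those kinds of sample were not tested. Of all genes tested, the groups did not overlap in 26.6% in peritoneal cells, 23.1% in the heart and 8.21% in the lung, in either direction. The share of all genes that did so in opposite directions was not computed, so the count cannot be set against it. With β-NMN, C1ra was higher in peritoneal cells (log2 fold change 0.99) and lower in the heart (-1.12, not called by edgeR, and -0.55 without vehicle heart 2). Fcna was higher in peritoneal cells (0.98) and lower in the lung (-0.92, not called). Vsig4 was higher in peritoneal cells (2.16) and lower in the heart (-1.91, not called by edgeR, and -1.59 without vehicle heart 2). The log2 ratio of C1qa to C1qb was lower in peritoneal cells (-0.43) and higher in the heart (0.30, and 0.18 without vehicle heart 2). Over 40 groups of 6 peritoneal libraries, of which chance marks about 1 in 20, Dixon's test at 95% set no library apart on the scale of CPM or of the ratios. On the log2 CPM scale it set apart vehicle replicate 4 for C1qb (7.75).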

How the results depend on the processing

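In peritoneal cells C3, Cfb and C1ra were called in the same direction under every alternative run, and C4b under all but the fits within libraries above and below 70 M counts (edgeR adjusted p = 0.109 and 0.07371). Leaving out 1 library at a time, 5 to 7 of the 9 genes and 10 to 15 of the other complement genes were called, beside 47.1 to 51.7% of all genes. Within libraries above 70 M counts 3 of the 9 and 11 of the others were called, beside 30.5% of all genes, and below it 4 and 8, beside 27.9%, with fewer samples in each fit. C1qa was at 0.1455 (log2 fold change) above 70 M and Cfp at -0.1547 below it. DESeq2 called 4 other complement genes lower in the heart (C5ar1, Itgam, Itgb2 and Vsig4), beside 1.89% of all genes called in either direction, and the cause was not tested. Scaling by total counts only, 7 of the 9 were called higher in lung than in heart, as were 52.1% of all genes (34.4% with TMM), C1qc being at 0.458. Leaving out 1 mouse at a time, 3 to 6 were, beside 29.9 to 38.8% of all genes.

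Other reversals were of genes that were not called. In the heart, C1qc was at 0.0031 under DESeq2 and Cfp at 0.0852 under limma-voom. In the lung with total counts only, C1qb, C1qc and C3 were at 0.0061, 0.0248 and 0.029. Leaving out 1 heart at a time, the log2 fold change ranged from -0.0464 to 0.2718 for C1qa, -0.2784 to 0.0128 for C1qb, -0.1486 to 0.1827 for C1qc and -0.2571 to 0.094 for Cfp. Leaving out 1 lung at a time, it ranged from -0.4634 to 0.003 for C1qa, -0.3637 to 0.1394 for C1qb, -0.3302 to 0.1299 for C1qc, -0.379 to 0.4271 for C3, -0.2808 to 0.0094 for C4b and -1.4732 to 0.0471 for Cfb.

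With the replicate number as a block, 6 of the 9 genes were called in peritoneal cells, C1qc being added (edgeR adjusted p = 0.04276), along with 14 other complement genes and 46.8% of all genes (51.6% without the block), and 0 in heart and lung. In the lung C1qb, C1qc and C3 then stood at 0.0187, 0.0234 and 0.0963. Deviations of libraries with the same number correlated at -0.169 to 0.132 in peritoneal cells, 0.073 to 0.241 in the heart and -0.518 to 0.304 in the lung, so the numbers were not taken as pairs, although each heart correlated best with its own number, a hint from the data only. Without the mouse as a block between heart and lung, 4 of the 9 were called higher in lung, beside 35.7% of all genes, and Cfb was at -0.2216. With 3 mice per group, and with C2 at few counts, small differences in the organs may go undetected.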
